A study of Bos taurus with 30 samples.

Results

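MicroRNAs (miRNAs) receive running numbers as they enter the miRBase catalogue, so that a bovine miRNA with a 5-digit number is among the later entries. Of the 1030 mature miRNAs measured in the anterior pituitary of bull calves, 129 carried a number of 10000 or above, from miR-10020 to miR-12064, and these are described here. The rule for membership is this number; it used no measured value, although it was written with earlier results of these data known. They comprised 18 names of a 5p arm, 11 of a 3p arm and 100 without an arm, and only 4 hairpins (miR-10172, miR-10174, miR-10175 and miR-10182) had both arms in the table.

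Small RNA of 1 library per calf was sequenced from 30 Holstein-Friesian bull calves. The 15 HI calves were fed 1.5 kg of milk replacer in 10 litres daily with concentrate at will, and the 15 MOD calves 0.5 kg in 4 litres daily with at most 0.5 kg of concentrate. Both diets ran from 2 weeks of age until the tissue was taken at 12 weeks, and hay and water were offered to all calves. The values are counts per 1000000 reads (CPM) that the authors had scaled between libraries, and whole reads were recovered from them.

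A miRNA gene is transcribed into a hairpin, from which the enzymes Drosha and Dicer cut a duplex of a 5p and a 3p strand. Usually one strand stays in the Argonaute protein, where its seed near the 5′ end pairs with messenger RNAs, while the other is degraded and is seen at lower levels. Early numbers hold many miRNAs conserved across vertebrates, whereas later catalogue entries are often rare, restricted to a few species, and located within introns of protein-coding genes. The anterior pituitary secretes growth hormone, prolactin, the gonadotropins, thyrotropin and corticotropin, and among its miRNAs miR-375 and miR-7 are typical of endocrine cells. Sequences of the members were not available among the sources used here, and none are printed.

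Libraries held 6650492 to 11086524 miRNA reads. A miRNA with 0 reads may still have been present at up to 3 reads, which is 0.266 to 0.419 CPM depending on the library (counting error only). Endocrine markers were abundant, with miR-375 at 103300 to 197200 CPM in HI calves and 111900 to 191300 CPM in MOD calves, and miR-7 at 11600 to 23420 and 12920 to 27590 CPM. The skeletal and cardiac muscle miRNAs miR-1 and miR-206 never exceeded 1 read, while miR-133a reached 77.4 CPM in 1 HI calf against a median of 8.81 CPM for HI and 11.1 CPM for MOD. White blood cell miRNAs were present in every library, with means of 493 CPM for miR-142-5p, 8.90 CPM for miR-150 and 1.12 CPM for miR-223. When calves were ordered by the number in their label, the last 9 (5 HI, 4 MOD) differed from the first 21 in many miRNAs. By its last digits, each label number also falls into 1 of 4 ranges, which hold 7, 3, 4 and 16 calves. What these numbers stand for is not given in the sources used here. In pieces of whole tissue, fewer cells of a type and less RNA per cell cannot be told apart.

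Most of the 5-digit miRNAs were detected somewhere, but few were detected everywhere. At least 1 read was found for 108 of the 129 (83.7%), close to the 81.2% of the 901 other miRNAs. By contrast, 24 (18.6%) had a read in all 30 libraries, against 50.9% of the others. A further 42 were seen in 1 to 9 libraries and 42 in 10 to 29, while 21 were at 0 reads throughout. More than 3 reads in any library were reached by 53 of the 129 members, against 575 of the 901 others. Of the miR-2284 and miR-2285 family, a large ruminant family, 4.73% of 148 names were at 0 throughout and 46.6% were found in all libraries. The 241 names of the number block that follows this family had 39.4% at 0 throughout and 14.9% found in all libraries. These shares are descriptions and no test was run on them.

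**Figure D1:**
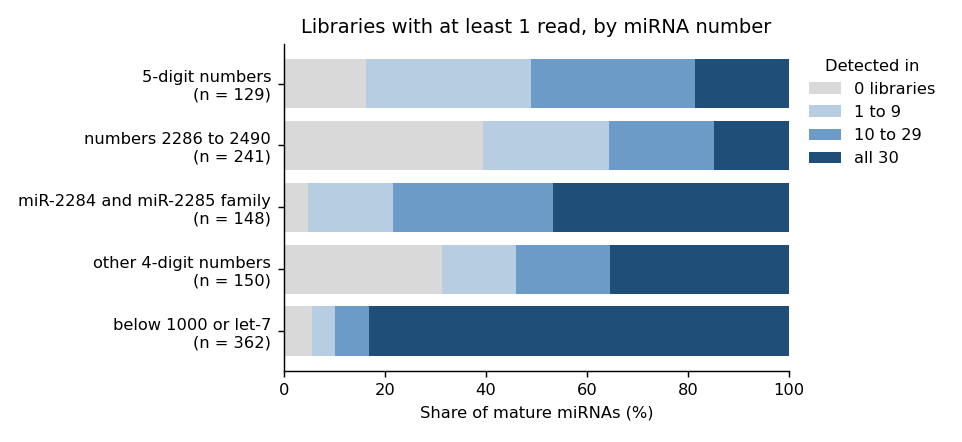
Share of mature miRNAs (%) in each class of miRNA number by how many of the 30 libraries held at least 1 read (grey, none; darkest blue, all 30). Among 5-digit numbers 16.3% were at 0 in every library and 18.6% were found in all 30, whereas 83.2% of the miRNAs with lower than 4-digit numbers (with let-7) were found in all 30.

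Each calf showed a similar number of members. A single HI library held reads of 50 to 65 members (median 57) and a MOD library of 50 to 62 (median 55). Members with more than 3 reads numbered 23 to 34 in HI and 24 to 31 in MOD libraries. Together the members made up 0.132% to 0.259% of a library (median 0.182%), and without miR-10174-3p only 0.0114% to 0.0216%. For comparison, the 148 names of the miR-2284 and miR-2285 family made up 0.136% to 0.198%.

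One member thus held nearly all of the reads. Levels of miR-10174-3p ran from 1201 to 2303 CPM in HI calves (median 1685) and from 1329 to 1890 CPM in MOD calves (median 1634), which placed it 54th of all miRNAs by mean level. It was the only member with a mean of 100 CPM or more, and rested on 10779 to 20530 reads per library. No other member reached a mean above 31.3 CPM. Next in order were miR-10182-5p (mean 31.3 CPM), miR-11986b (25.5 CPM), miR-10182-3p (25.4 CPM), miR-10166-5p (24.3 CPM) and miR-11971 (16.0 CPM). Means of 9.95, 5.57, 3.79 and 3.78 CPM were found for miR-11977, miR-11982, miR-10164-3p and miR-10172-3p. In all, 19 members averaged 1 CPM or more and 6 averaged 10 CPM or more. Among the 108 detected, the median of the mean levels was 0.0855 CPM, against 2.28 CPM for the 732 other detected miRNAs.

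**Figure D2:**
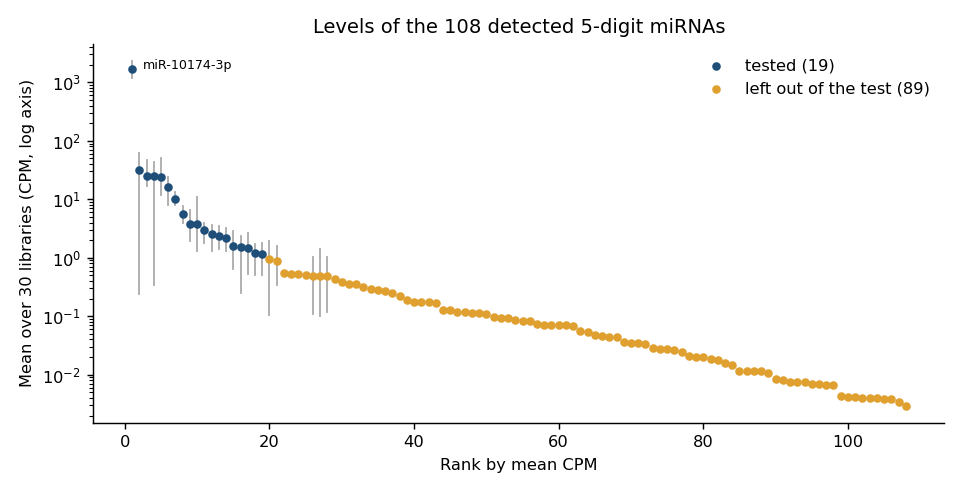
Mean CPM over 30 libraries (log axis) of the 108 detected 5-digit miRNAs in order of level; grey lines run from the lowest to the highest library and are drawn for miRNAs with reads in all 30. The 19 tested members (blue) lie at or above 1.17 CPM and the 89 left out of the test (orange) at or below 0.948 CPM, with miR-10174-3p alone at 1667 CPM.

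Genomic surroundings were read from RefSeq genes on ARS-UCD2.0, whereas the reads had been mapped to ARS-UCD1.2. There, 123 of the 129 names were matched to 121 hairpin genes. Of these hairpin genes 93 overlapped a protein-coding gene, 6 overlapped only another kind of gene, and 22 overlapped none. Another miRNA gene lay within 10000 bases of 4 of them, and 2 more, both of miR-12005, overlapped each other, so that 6 of the 121 had a miRNA gene nearby. The table gives no strand. Hairpins of the tested members overlapped BEGAIN (miR-10172), FGF12 (miR-10182), AACS (miR-10166), OCLN (miR-11986b), MEGF11 (miR-11971), LYST (miR-11982), BoLA (miR-10167) and ZEB1 (miR-11998), among others. BEGAIN encodes a protein associated with synaptic scaffolds, FGF12 an intracellular fibroblast growth factor homologue that binds sodium channels, AACS an enzyme that converts ketone bodies for lipid synthesis, OCLN the tight junction protein occludin, and BoLA a class I histocompatibility antigen. No gene was matched for miR-10174, the most abundant member.

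Where both arms were listed, the balance between them differed between hairpins. For miR-10174 the 3p arm held 99.98% of 433757 reads, and the 5p arm was seen at 0 to 8 reads per library. For miR-10172 the 3p arm held 89.6% of 1107 reads and was the higher arm in 30 of 30 calves. The arms of miR-10182 were nearly equal, with 55.3% of 14846 reads on the 5p arm, which was higher in 24 of 30 calves. Only 21 reads were found for miR-10175, 19 of them on the 3p arm.

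Diets were compared with limma after transformation to log2(CPM + 1), which understates the change of miRNAs at a few CPM or less. Of 419 miRNAs that passed a filter on low reads, 19 were members, and the other 110 members were too low for this test. The thresholds were a false discovery rate (FDR, Benjamini-Hochberg over the 419) under 0.1 and a fold change over 1.5. One of the 19 members passed both, miR-10172-3p, where 0.477% of all miRNAs tested did so. It was also the only member at FDR < 0.1 without the fold change threshold, where the share of all tested was 3.58% (1.91% for those higher in HI calves), and the only one with an unadjusted p under 0.05, where that share was 12.6%. Among the other 18 members the lowest FDR was 0.590. Log2 fold changes were above 0 for 13 of the 19 members, against 230 of all 419 miRNAs, and below 0 for 6 members. The median was 0.03 over the members and 0.02 over all 419.

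miR-10172-3p was higher in HI calves. Its level was 2.31 to 10.96 CPM in HI (median 3.82) and 1.28 to 4.38 CPM in MOD calves (median 2.54), based on 19 to 84 and 11 to 39 reads per library. The diets overlapped, but 7 HI calves lay above the highest MOD calf and 14 of 15 lay above the MOD median. The respective means were 4.93 ± 2.43 and 2.63 ± 0.884 CPM (SD, n = 15 per diet). The log2 fold change was 0.65 (standard error 0.16, 95% CI 0.32 to 0.98, limma FDR = 0.0256). The highest level, 10.96 CPM, belonged to HI calf AP27848, without which the limma log2 fold change was 0.57, below the fold change threshold, with FDR = 0.0261. With upper quartile scaling in place of the deposited scaling it was also 0.57 (limma FDR = 0.0343). Both values are on the log2(CPM + 1) scale, and with a pseudocount of 0.1 CPM the log2 fold change over all calves was 0.81 (limma FDR = 0.0243). On whole reads, edgeR's quasi-likelihood test gave 0.92 (FDR = 0.0136) with all calves and, in a comparison chosen after seeing the data, 0.78 (FDR = 0.0239) without AP27848, past both thresholds.

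Its partner strand, miR-10172-5p, was too low to pass the filter. It was found at 1 to 14 reads in HI libraries (median 5) and at 0 to 5 reads in MOD libraries (median 2). Over 15 calves per diet it averaged 0.569 ± 0.385 (SD) in HI against 0.296 ± 0.153 CPM in MOD, and 5 HI calves exceeded the highest MOD calf, which had 0.561 CPM. The difference on the log2(CPM + 1) scale was 0.25 (two-sided permutation test over calves, p = 0.0192). With no filter, over 840 miRNAs, limma gave it FDR = 0.324, and the quasi-likelihood test of edgeR on whole reads gave a log2 fold change of 0.95 with FDR = 0.221, so that it did not pass the correction for multiple tests. Libraries with more than 3 reads numbered 10 of 15 HI and 3 of 15 MOD (Fisher's exact test, unadjusted p = 0.0253, adjusted p = 1.0). The arms varied together over the 30 calves, with Pearson's r = 0.73 (permutation p = 4e-05) and Spearman's rho = 0.61 (permutation p = 0.00061) on log2(CPM + 1). Adjusted over the 3 hairpins compared these were 0.00012 and 0.00183. The r was 0.63 without the 2 calves farthest from the median of the 3p arm. It was 0.70 within HI and 0.50 within MOD calves, and 0.71 and 0.80 within the 21 and the 9 calves described above. Both arms share each library and its scaling, and the 5p arm rests on few reads.

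**Figure D3:**
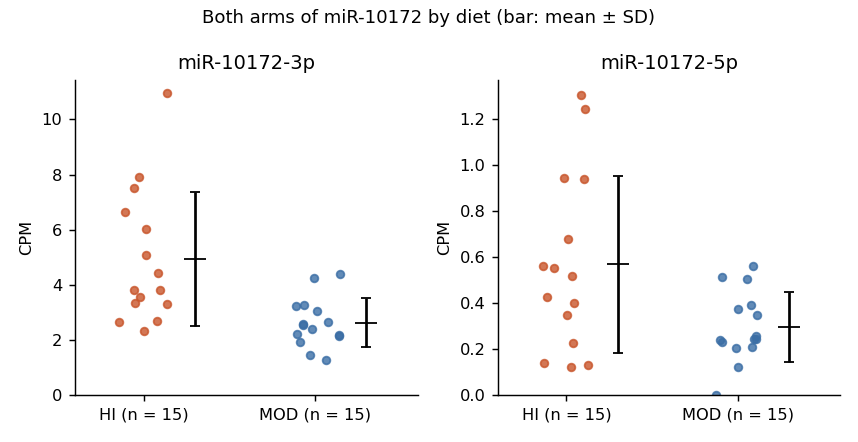
CPM of miR-10172-3p (left) and miR-10172-5p (right) in each calf by diet, with 15 calves per diet and bars for mean ± SD. The means were 4.93 and 2.63 CPM for the 3p arm and 0.569 and 0.296 CPM for the 5p arm in HI and MOD calves, and the ranges overlap in both.

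The red blood cell miRNAs are given beside miR-10172-3p. In HI calves miR-451 ran from 67.3 to 403 CPM, miR-144 from 2.59 to 12.7 CPM and miR-486 from 10400 to 24340 CPM. The MOD ranges were 56.8 to 175, 1.80 to 4.81 and 15440 to 27360 CPM. Log2 fold changes were 0.55, 0.46 and -0.27, with limma FDR of 0.190, 0.115 and 0.274, none under 0.1. The authors, using edgeR on the same calves, listed miR-10172-3p, miR-451 and miR-144 as higher in HI calves. The call for miR-451 and miR-144 thus varied with the method. With miR-486 as a covariate the log2 fold change of miR-10172-3p was 0.48 and its limma FDR 0.135, past neither threshold. Between diets miR-486 went the other way from miR-451 and miR-144, and no fit used either of those as a covariate. The fit with miR-486 therefore does not measure the part of red blood cells in the result, which was not tested. Restricted to the 21 calves with lower label numbers, HI exceeded MOD by 0.71 on the log2(CPM + 1) scale (two-sided exact permutation test, p = 0.00229). In the 9 others, 5 HI and 4 MOD, it did so by 0.47 (two-sided exact permutation test, p = 0.127). miR-10172-3p had been picked from all these calves together, and the boundary of the 9 had been taken from miR-99b. These unadjusted p values are therefore no further support for the result.

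No other member passed the test for diet. For 15 of the 19 tested members the 95% confidence interval on the log2(CPM + 1) scale lay wholly within a fold change of 1.5 in either direction. With a pseudocount of 0.1 CPM, and with limma-voom on whole reads, this held for 14, the exception being miR-11995. For members at 1 to 3 CPM the width depends on the pseudocount. The same share over all 419 miRNAs was not computed, so these counts do not set the members apart. The median absolute log2 fold change was 0.0936 over the 19 members and 0.0708 over all 419. For miR-10174-3p the log2 fold change was 0.00 (95% CI -0.16 to 0.17), the mean being 1682 ± 351 CPM for HI against 1651 ± 145 CPM for MOD calves (SD, n = 15 per diet). HI calves ranged more widely, from below the lowest to above the highest MOD calf. For miR-11977 the log2 fold change was 0.03 (95% CI -0.12 to 0.17), and for miR-11982 it was 0.09 (95% CI -0.09 to 0.27). Next to miR-10172-3p, the lowest p values were those of miR-11998 (log2 fold change 0.15, limma FDR = 0.590), miR-11995 (0.15, FDR = 0.639), miR-11989 (-0.14, FDR = 0.672) and miR-10166-5p (-0.31, FDR = 0.721). Intervals reached beyond a fold change of 1.5 for miR-10172-3p, miR-10166-5p and both arms of miR-10182.

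**Figure D4:**
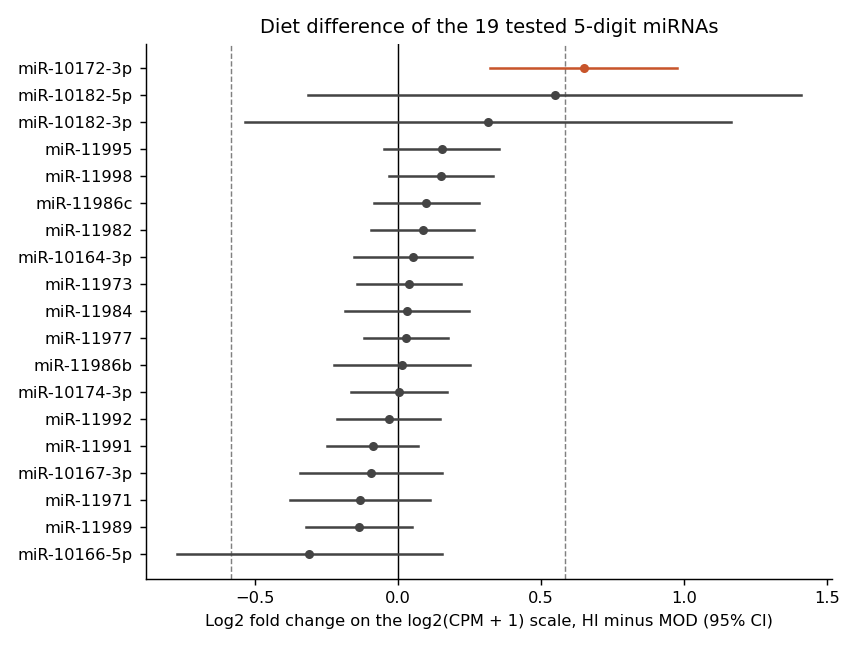
Log2 fold change of HI against MOD calves on the log2(CPM + 1) scale for the 19 tested 5-digit miRNAs (points) with 95% confidence intervals from limma (lines); dashed lines mark a fold change of 1.5 in either direction. miR-10172-3p (orange) is the one member past FDR < 0.1, at 0.65, and the widest intervals belong to the arms of miR-10182.

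The members with wide intervals were those that varied most between calves. Over the 419 tested miRNAs the SD of log2(CPM + 1) across calves had a median of 0.253, and over the 19 members 0.275. Both arms of miR-10182 were among the most variable miRNAs, with the 5p arm in position 4 and the 3p arm in position 5 of the 419. Position 25 was held by miR-10166-5p (SD 0.660) and position 34 by miR-10172-3p (SD 0.556). The level of miR-11977 was steady, in position 334 (SD 0.182), with 67 to 127 reads in every library.

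miR-10182 was nearly absent from 2 calves. HI calves had 15.2 to 62.5 CPM of miR-10182-5p (median 31.6) and 11.6 to 36.3 CPM of miR-10182-3p (median 26.8). MOD calves had 0.238 to 50.7 CPM of the 5p arm (median 31.0) and 0.348 to 42.8 CPM of the 3p arm (median 30.8). The low values came from MOD calves AP21978, with 2 reads of the 5p and 4 of the 3p arm, and AP61973, with 6 and 3, while each of the other 28 calves had at least 123 and 101 reads. The widest gaps between neighbouring calves on the log2(CPM + 1) scale, 3.25 for the 5p and 3.10 for the 3p arm, were the largest of the 419 miRNAs tested. Depth in these libraries was 8428285 and 8632279 reads, and 16 and 17 of the other 17 tested members lay within the range of the 28 calves. Both calves belonged to the label number range of 7 calves.

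Among the 28 calves the 3p arm of miR-10182 fell into 2 further levels. In 6 calves (4 HI and 2 MOD) it was at 11.6 to 13.9 CPM, on 101 to 117 reads, and in the other 22 (11 HI and 11 MOD) at 24.4 to 42.8 CPM, on 187 to 400 reads, with none between. In the 6 calves the 5p arm was 15.2 to 24.0 CPM and in the 22 it was 23.9 to 62.5 CPM, so that both arms were low in these 6, although the 5p ranges met. The 6 came from 3 of the 4 ranges of label numbers and 3 of them from the 9 highest label numbers. Within the 22 calves the arms gave r = 0.53 (permutation p = 0.0123) and rho = 0.53 (permutation p = 0.0124), or 0.0185 and 0.0186 adjusted over the 3 hairpins. Without the 2 calves farthest from the median r was 0.42, and it was 0.47 within HI, 0.76 within MOD, and 0.52 and 0.42 within those of the 21 and of the 9 calves. For miR-10182 the 22 calves had been picked by the level of its 3p arm, so its r covers that subset only. Over all 30 calves the arms of miR-10174 gave r = -0.18 (permutation p = 0.341) and rho = -0.16 (permutation p = 0.406). Adjustment left these p values the same, and r was 0.08 within the 21 and -0.63 within the 9 calves. The 5p arm of miR-10174 had only 0 to 8 reads per library, which limits what its r can show.

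The diet difference in miR-10182 rested on these 2 MOD calves. With all calves the log2 fold change was 0.55 (95% CI -0.31 to 1.41, limma FDR = 0.721) for the 5p arm and 0.32 (95% CI -0.53 to 1.17, FDR = 0.873) for the 3p arm. Without them, a comparison chosen after seeing the data, it was -0.06 (95% CI -0.42 to 0.31, FDR = 0.967) and -0.27 (95% CI -0.67 to 0.13, FDR = 0.746). With all calves, edgeR's quasi-likelihood test gave 0.20 for the 5p and -0.04 for the 3p arm, so that the sign for the 3p arm also varied with the tool. Without the 2 calves, means of the 5p arm were 33.3 ± 13.1 CPM (SD) for the 15 HI calves and 33.7 ± 9.20 CPM for the 13 remaining MOD calves.

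miR-10166-5p also fell into 2 levels. HI calves ranged from 12.3 to 50.1 CPM (median 17.2) and MOD calves from 11.9 to 48.1 CPM (median 19.9). In 21 calves it was at 11.9 to 20.9 CPM, on 94 to 166 reads, and in 9 at 36.1 to 50.1 CPM, on 289 to 496 reads. The higher level was found in 3 of 15 HI and 6 of 15 MOD calves, in 3 of the 4 ranges of label numbers, and in 3 of the 9 calves with the highest label numbers. The diet means, 21.8 ± 12.9 CPM for HI and 26.8 ± 12.6 CPM for MOD (SD, n = 15 per diet), differed by less than their spread.

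miR-11979 was detected in some calves and not in others. Its hairpin gene overlapped no other gene and lay next to BOLA, of the cattle histocompatibility complex. No read was found in 21 libraries, each of which allows up to 3 reads, and 6 to 23 reads were found in the other 9, or 0.721 to 2.36 CPM. These were 4 of 15 HI calves (12 to 22 reads) and 5 of 15 MOD calves (6 to 23 reads), with no difference in detection found between diets (Fisher's exact test, adjusted p = 1.0). It was found in all 3 calves of 1 range of label numbers, in 3 of 7, 1 of 4 and 2 of 16 calves of the others, and in 3 of the 9 calves with the highest label numbers. Of the 9 calves at the higher level of miR-10166-5p, 2 also had miR-11979, beside 9 of all 30 calves. The cause of these calf-to-calf differences was not tested.

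**Figure D5:**
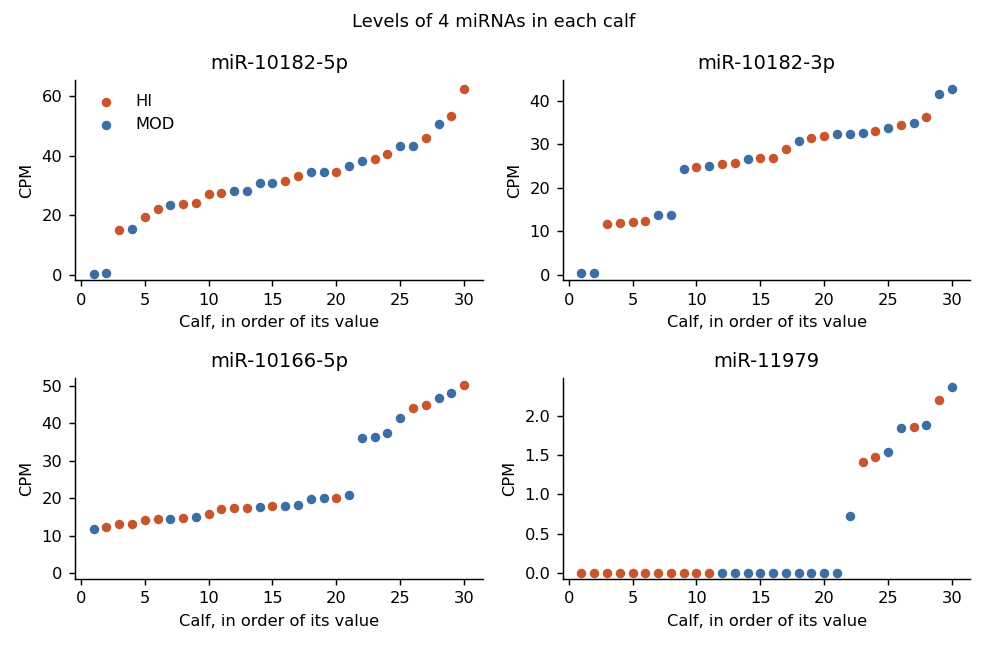
CPM of miR-10182-5p, miR-10182-3p, miR-10166-5p and miR-11979 in each of the 30 calves, in order of the value (orange, HI; blue, MOD). The 2 low MOD calves lie below 1 CPM for both arms of miR-10182, 9 calves lie above 36 CPM for miR-10166-5p, and 21 calves are at 0 for miR-11979.

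By label number, 3 members differed between the 9 calves with the highest label numbers and the other 21, at FDR < 0.1 with diet in the limma model. That is 3 of 19, while 26.0% of all 419 miRNAs did so (11.7% higher and 14.3% lower in the 9). The boundary of the 9 had been taken from miR-99b in these same libraries. These FDR values are therefore not those of a grouping fixed before the data were seen. miR-10174-3p was lower in the 9, at 1201 to 1634 CPM against 1413 to 2303 CPM (log2 difference -0.33, standard error 0.07, FDR = 0.000907). miR-11986b was also lower, at 16.8 to 24.4 against 17.6 to 46.9 CPM (-0.36, standard error 0.11, FDR = 0.0213). miR-11971 was higher, at 16.5 to 23.7 against 8.08 to 18.5 CPM (0.47, standard error 0.10, FDR = 0.00129). All 9 calves lay on the same side of the median of the 21 for each of these miRNAs, although the ranges overlapped. Over the 4 ranges of label numbers no member passed FDR < 0.1 in limma, where 0.239% of all miRNAs did, and none had an unadjusted p under 0.05, where 3.34% of all did. In edgeR's quasi-likelihood test no miRNA passed FDR < 0.1, and 1 member had an unadjusted p under 0.05. The lowest unadjusted limma p values were 0.0501 for miR-11992 (whose hairpin overlapped RBM22, a splicing factor gene) and 0.0545 for miR-11984 (NOM1, a nucleolar protein gene).

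Below the filter lay 110 members, of which 89 had at least 1 read. After miR-11979, the highest counts in a single library were 19 reads for miR-12044, whose hairpin overlapped the transcription factor gene ELF1, and 18 reads for miR-12001, whose hairpin overlapped ANKRD54. miR-12044 was found in all 30 libraries, at 0.262 to 1.96 CPM in HI libraries and 0.105 to 1.50 CPM in those of MOD calves. miR-12001 ranged from 0 to 18 reads in HI and from 0 to 15 in MOD libraries and was missing from 5 of the 30. Presence by diet was compared with Fisher's exact test for the 84 members left out of the limma test that had reads in 1 to 29 libraries. None passed FDR < 0.1 over the 356 miRNAs so tested, where 0.0% of all did, and none had an unadjusted p under 0.05. The most uneven, named after their values were seen, were miR-12050, found in 4 HI and no MOD libraries, and miR-12006, found in 11 HI and 15 MOD libraries (unadjusted p = 0.0996 each). Counts of miR-11975 and miR-11976, singled out after their values were seen, were equal in all 30 libraries, with 24 reads in total each, although their hairpin genes overlap MIA3 and PATZ1, so that the 2 names cannot be told apart in these data.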

How the data were processed

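Small RNA libraries of 30 calves, grouped by the diet in their labels, were analysed as deposited. The authors had removed adapters (Cutadapt), discarded reads outside the size of a miRNA or from other short RNAs, and counted known bovine miRNAs (miRDeep2, ARS-UCD1.2). What they deposited is a signal rather than counts, namely CPM after edgeR's TMM scaling. The value of 1 read was recovered in each library as the step between low values, of which at least 94.8% were whole within 0.02 reads; none of the members had fractional reads. Recovery returned the total of 20 of 20 simulated libraries, and recomputed TMM factors differed by at most 6.7e-06.

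The main test was limma 3.58.1 in R 4.3.3 (eBayes with trend) on log2(CPM + 1) of the 419 miRNAs passing edgeR's filterByExpr. It was also run on 419 simulated miRNAs, of which 200 were changed 1.5-fold. At FDR < 0.1 alone, it called 184 of these in the right direction and 15 unchanged ones. In the data, 3.58% of the 419 miRNAs were called between diets at that FDR. The simulation changed a far larger share than this, so it does not measure the power of the diet test here. Single values were compared with permutation tests of 100000 resamples, or exact ones within the 21 and 9 calves. Alternatives were edgeR 4.0.16, DESeq2 1.42.0, limma-voom, other scalings, filters, pseudocounts and covariates, and each calf left out. P-values measure the spread between calves.

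Members are the names numbered 10000 or above. Members, lists and the boundary of the 9 calves, taken from miR-99b, were chosen with earlier results of these data known. The named miRNAs were the members at FDR < 0.1, the 10 most abundant, the 5 with the lowest p for diet, label set and label number range, the pairs of arms, and the 3 untested ones with the highest counts. Label number ranges are the 4 groups into which the last digits of the calf labels fall. Grouping by seed was part of the rule and was not done, as no sequences were used here.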

Additional observations from a re-analysis of the deposited data

How the results depend on the processing

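The authors had blocked the calves by age, weight, sire and farm before giving the diets, but the labels name no block. Calves of one diet also carry no number that links them to calves of the other. No paired analysis, and none by these blocks, was therefore possible. The number of members past FDR < 0.1 and fold change > 1.5 was 1 (miR-10172-3p). It was 0 with upper quartile scaling, with 2 members at an unadjusted p under 0.05, and also 0 with miR-486 as a covariate, where 1 member had an unadjusted p under 0.05. The number at FDR < 0.1 alone was 1, and 0 with miR-486 as a covariate. Leaving out each calf in turn gave 0 to 1 and 1 to 1; the 0 came without HI calf AP27848 in limma, whereas edgeR's quasi-likelihood test without this calf gave 1. The cause was not tested. In the other settings, 3 of them added after seeing the data, both numbers were 1. The log2 fold change of miR-10172-3p ran from 0.48 to 0.92, with FDR from 0.0021 to 0.135, and was 0.57 to 0.70 with each calf left out. None of the other 15 named members tested passed both thresholds in any of 47 settings, with a lowest FDR of 0.206, and the sign of the log2 fold change varied for 8 of them. Over all 419 miRNAs the log2 fold change had a median of 0.02 with the deposited scaling, 0.07 on total counts, -0.07 with upper quartile scaling and 0.07 without the 5 most abundant miRNAs.

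The 108 members detected became 53 with more than 3 reads in at least 1 library and 24 with a read in every library, as these are stricter. The 3 members that differed between the label sets were within 1.5 times that number under each alternative. Depth limits the test to 19 of 129 members, and a read of 0 allows up to 0.419 CPM.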
